A study of Mus musculus with 48 samples.

Results

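MCAO against sham at 12 h was compared in 9 of the 48 bulk RNA libraries of the series, 5 from mice with permanent middle cerebral artery occlusion (MCAO, replicates A to E) and 4 from sham-operated mice (replicates A to D). The libraries were chosen by their titles, and all genes in them were read. All mice were 3-month-old C57Black/6 males. In MCAO mice the artery was coagulated and cut under isoflurane, and sham mice went through the operation without coagulation. The other libraries (an unoperated control, and MCAO and sham at 3 h, 24 h, 3 days and 7 days) entered the fits to share 1 estimate of the spread, and those of 3 h and 24 h are set beside the 12 h effect. The model leaves a small infarct in the parietal cortex, and the sample labels describe the tissue as injured cortex along with unaffected tissue, so that each library mixes lesion and surrounding brain. The series text instead speaks of forebrain hemispheres. No label says that the replicate letters are separate animals. By the study's text the bulk libraries came from at least 4 mice per condition. The p-values of genes rest on the spread between samples within the groups of all 48 libraries, not on that of the 9 libraries alone.

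When an artery to the cortex is closed, neurons in the core lose oxygen and glucose within minutes and die over hours. Surviving neurons, glia and vessels switch on stress programs: chaperones that refold proteins, metal-binding and heme-degrading proteins, and genes driven by hypoxia-inducible factor. Damaged cells also release signals that make microglia, astrocytes and endothelium secrete cytokines and chemokines, which draw neutrophils from the blood and turn astrocytes reactive.

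Counts on genes ranged from 1699600 to 2780229 per MCAO library and from 1832129 to 2657324 per sham library, and levels below are CPM, counts scaled to a common library size after TMM normalization. Spike-in RNA took 4.91% ± 0.51 (SD, n = 5) of the counts after MCAO and 4.55% ± 0.633 (SD, n = 4) in sham, a difference of 0.365 percentage points with an exact two-sided permutation p of 0.429. The markers of 3 kinds of tissue differed between single libraries. The summed level of 12 striatal genes was 672, 587, 456, 1876 and 628 CPM in MCAO A to E and 3066, 1661, 911 and 2955 CPM in sham A to D, so that MCAO D and sham A, B and D stood above the other libraries. The 18 neutrophil genes tested summed to 35.2, 69.4, 215, 220.0 and 2023 CPM after MCAO, with replicate E far above the rest, and to 26.8, 16.7, 7.02 and 14.4 CPM in sham. The 6 blood genes summed to 115, 182, 1456, 1325 and 858 CPM after MCAO and to 54.7, 72.5, 216 and 168 CPM in sham, and replicates C, D and E were high. The 22 neuronal genes covered a similar range in both groups, 6195 to 7441 CPM after MCAO and 6293 to 7434 CPM in sham. What part these mixtures had in the differences below was not tested beyond the fit with the striatal level as a covariate.

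**Figure D1:**
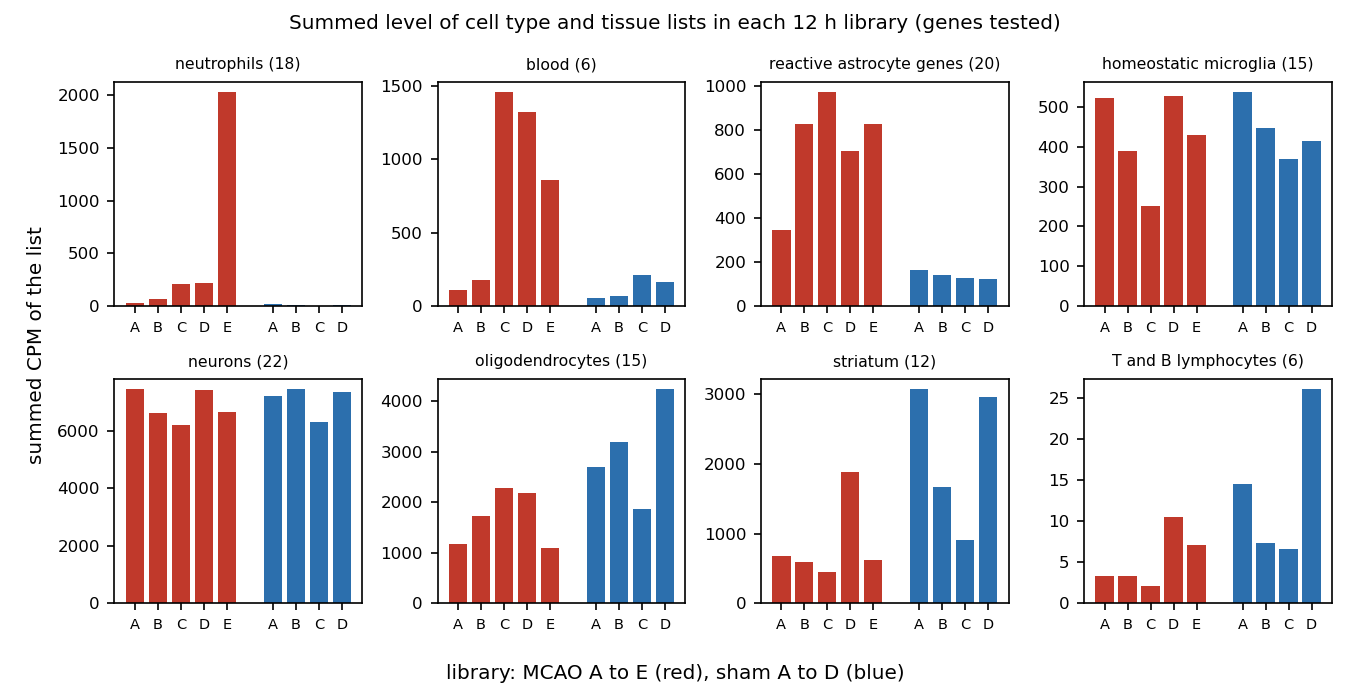
Summed CPM of 8 lists of cell type or tissue genes in each 12 h library, MCAO A to E in red and sham A to D in blue, with the number of genes tested in brackets. MCAO E holds 2023 CPM of neutrophil genes, and sham A and D hold 3066 and 2955 CPM of striatal genes.

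At 12 h, 82 of 19970 genes tested (0.411%) were called different between MCAO and sham, 69 of them higher after MCAO (0.346% of all genes tested) and 13 lower (0.0651%). Genes were called where the quasi-likelihood p of edgeR, adjusted over all genes tested (Benjamini-Hochberg), was below 0.01 and the log2 fold change exceeded 0.58 in size. The 69 rises had a median log2 fold change of 2.27, and 18 of them exceeded 4, while the 13 falls had a median of -0.999 and none fell by more than 1.78. The 5 MCAO libraries did not overlap the 4 sham libraries in 65 of the called genes (0.325% of all genes tested), beside 657 of all genes tested (3.29%). MCAO E held the highest value for 32 of the 69 rises and MCAO C for 24, and MCAO A held the lowest for 32. In bulk tissue, fewer cells of a type and less RNA per cell cannot be told apart, and the same holds for more of either.

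The number of calls was not stable when 1 library was left out: 42 genes were called without MCAO C, 32 without MCAO E, 37 without sham A, 34 without sham B, 21 without sham C and 32 without sham D, and between 78 and 102 without MCAO A, B or D. Of the 82 genes, 15 were called in each of the 9 fits that leave out 1 library. They were *Timp1*, *Tubb6*, *Stat3*, *Prg4*, *Pdlim4*, *Gfap*, *Adamts1*, *Ifitm3*, *Pdpn*, *Mrps6*, *Pvr*, *Stk40*, *S100a8*, *S100a9* and *Synpr*, all higher after MCAO. *Synpr*, however, was low in the 12 h shams beside all other libraries without MCAO. None of the 13 falls was called in all 9. Against the mean of the sham groups of all 5 times 489 genes were called higher (2.45% of genes tested) and 111 lower (0.556%), and 75 of the 82 were among them. The other 7 were *Snrpd1* (0.47 on the log2 scale), *Hsp90ab1* (0.52), *Synpr* (0.25), *Gm15446* (0.09), *Lama2* (-1.12), *Tprgl* (-0.46) and *Nudt19* (-0.47). With the striatal level as a covariate, 28 of the 69 rises and 3 of the 13 falls were called, and with the 9 libraries fitted alone 13 of the rises and none of the falls were. The striatal level itself differed between the groups, at 456 to 1876 CPM after MCAO and 911 to 3066 CPM in sham. A call lost with this covariate therefore cannot be told apart from lost power or from removal of part of the MCAO effect.

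**Figure D2:**
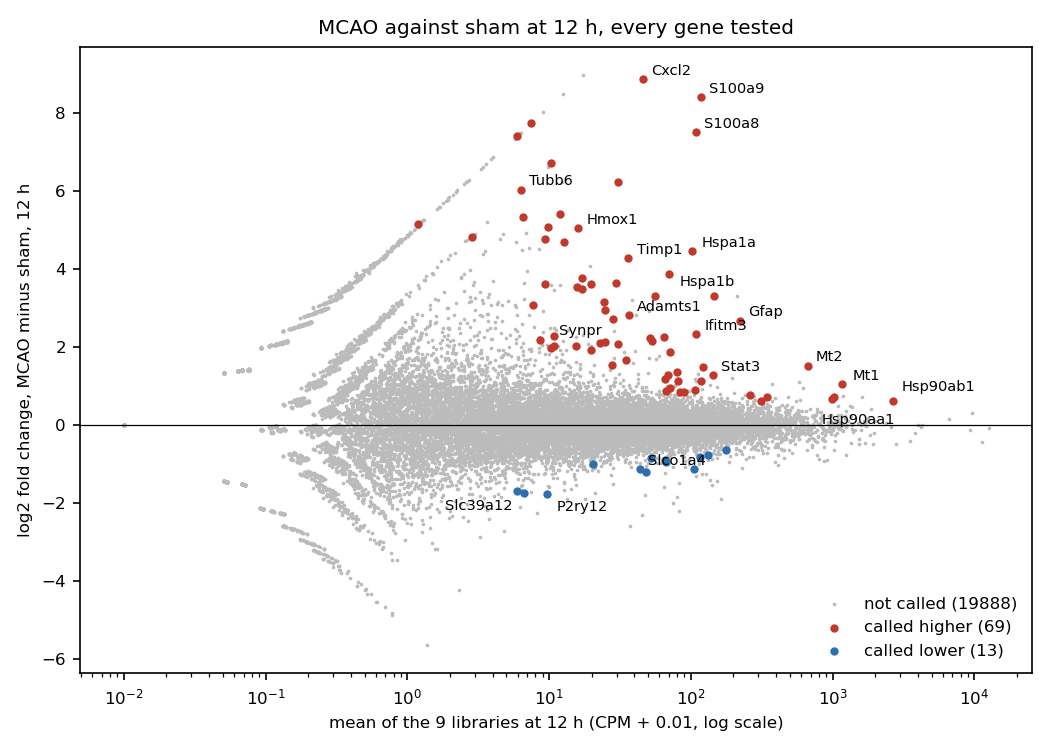
Log2 fold change of MCAO minus sham at 12 h (vertical) against the mean level over the 9 libraries (horizontal, CPM + 0.01 on a log scale), 1 point per gene, with the 69 genes called higher in red, the 13 called lower in blue and the others in grey. The called rises reach up to *Cxcl2* at 8.87, and the called falls down to *P2ry12* at -1.78.

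Of 20 chaperone genes 4 rose, the inducible Hsp70 genes by most. *Hspa1a* encodes a chaperone that is low in resting cells and is switched on by heat shock factor when proteins unfold. Its level was 9.64, 32.5, 723, 64.1 and 52.4 CPM after MCAO and 6.14, 7.30, 9.23 and 8.57 CPM in sham. MCAO C stood far above the others, and all 5 MCAO libraries lay above the 4 sham libraries, MCAO A only just. The other 20 libraries without MCAO ranged from 6.46 to 37.2 CPM (median 10.4), and MCAO A and B lay within that range. The log2 fold change was 4.46 (SE 0.80, adjusted p = 0.00111). Its neighbour *Hspa1b* stood at 4.82, 48.05, 499, 16.5 and 31.6 CPM after MCAO and 2.79, 8.34, 15.5 and 4.67 CPM in sham, a rise of 3.88 (SE 0.81, adjusted p = 0.00644) in which MCAO A lay inside the sham range. Without MCAO C the log2 fold changes were 2.29 and 1.61 and neither gene was called. The call for *Hspa1a* was also lost without sham C, and that for *Hspa1b* without any 1 of the sham libraries. Both genes lie on chromosome 17 (*Hspa1a* at 34969190 to 34972156 and *Hspa1b* at 34956436 to 34959238, minus strand, GRCm38), and they are near-identical copies, so that the division of reads between them is uncertain.

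The 250 bases before the RefSeq starts of both copies (GRCm38.p6, chr17:34972157-34972406 and chr17:34959239-34959488, minus strand) are shown because the genes rose together. They differ at 3 positions, and each holds 1 heat shock element of the form GAANNTTC (capitals), starting 104 bases before the start.
*Hspa1a*: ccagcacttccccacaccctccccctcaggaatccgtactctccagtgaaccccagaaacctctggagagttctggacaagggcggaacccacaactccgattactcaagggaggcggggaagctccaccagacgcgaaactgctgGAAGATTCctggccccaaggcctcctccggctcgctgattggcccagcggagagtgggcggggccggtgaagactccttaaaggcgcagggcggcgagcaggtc
*Hspa1b*: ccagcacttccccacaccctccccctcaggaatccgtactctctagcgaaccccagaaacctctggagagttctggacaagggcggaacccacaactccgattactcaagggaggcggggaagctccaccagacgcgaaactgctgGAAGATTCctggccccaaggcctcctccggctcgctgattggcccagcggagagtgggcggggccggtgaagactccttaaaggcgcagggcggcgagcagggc

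Both cytosolic Hsp90 genes rose by less. *Hsp90aa1*, the stress-inducible Hsp90, was at 1347, 844, 1531, 1249 and 1229 CPM after MCAO and 829, 753, 823 and 599 CPM in sham, with no overlap and a log2 fold change of 0.72 (SE 0.16, adjusted p = 0.0093) that was called in 1 of the 9 fits without 1 library. Its constitutive counterpart *Hsp90ab1* changed by 0.61 (SE 0.12, adjusted p = 0.00248), just past the fold needed for a call, and was called in 5 of the 9. Of the 20 heat shock genes and co-chaperones tested, 4 rose and none fell. Their median log2 fold change was 0.66, beside 0.01 over all genes tested, and 19 of the 20 values were above 0. *Hsph1*, the Hsp110 chaperone, was at 515, 446, 1619.6, 786 and 450.2 CPM after MCAO and 365, 300.3, 450.2 and 313 CPM in sham, but was not called, at a log2 fold change of 1.10 (adjusted p = 0.0223). With the striatal level as a covariate only *Hspa1a* of the 4 was called. None of the 20 genes of the ER stress and integrated stress response was called. The ER chaperone *Hspa5* and the transcription factor *Atf4* had values of 0.64 (adjusted p = 0.126) and 0.82 (adjusted p = 0.0448), and the list median was 0.41.

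Metallothioneins, small proteins that bind zinc and copper and are induced by metals, oxidants and glucocorticoids, rose, and every MCAO library lay above the sham mean. *Mt1* was at 1156, 1578, 2014, 1319 and 1477 CPM after MCAO and 829, 684, 654 and 754 CPM in sham. The groups did not overlap, and the log2 fold change was 1.05 (SE 0.19, adjusted p = 0.000975). *Mt2* was at 379, 1109, 1538, 589 and 1077 CPM after MCAO and 197, 291, 522 and 296 CPM in sham, where MCAO A lay below sham C, and its log2 fold change was 1.52 (SE 0.28, adjusted p = 0.00118). *Mt1* was called in all 9 fits without 1 library other than that without sham C, *Mt2* in 5, and both with the striatal level as a covariate. *Hmox1*, which degrades heme to iron, carbon monoxide and biliverdin, was at 4.45, 16.99, 79.3, 21.8 and 17.9 CPM after MCAO and 1.12, 1.04, 0.369 and 0.779 CPM in sham. Every MCAO library exceeded every sham library, MCAO C most, and the log2 fold change was 5.04 (SE 0.98, adjusted p = 0.00277). The *Hmox1* call was lost without MCAO C and without any 1 of the sham libraries, and with the striatal level as a covariate. These 3 were the only calls among 17 genes of metal, antioxidant and heme handling, whose median was 0.18. *Srxn1*, which repairs oxidized peroxiredoxins, stood at 0.96 (adjusted p = 0.0125) and the ferritin heavy chain gene *Fth1* at -0.27 (adjusted p = 0.489).

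*Mt2* and *Mt1* lie next to each other on chromosome 8 (94172664 to 94173568 and 94179082 to 94180327, plus strand, GRCm38). The 250 bases before their RefSeq starts (GRCm38.p6, chr8:94172368-94172617 and chr8:94178839-94179088, plus strand) are shown with matches to the core of the metal response element, TGCNCNC, in capitals on either strand. The *Mt2* window holds 5 such matches and the *Mt1* window 1. For both genes the window does not end at the gene start given above, so these numbers hold for the windows shown and not for the whole promoters.
*Mt2*: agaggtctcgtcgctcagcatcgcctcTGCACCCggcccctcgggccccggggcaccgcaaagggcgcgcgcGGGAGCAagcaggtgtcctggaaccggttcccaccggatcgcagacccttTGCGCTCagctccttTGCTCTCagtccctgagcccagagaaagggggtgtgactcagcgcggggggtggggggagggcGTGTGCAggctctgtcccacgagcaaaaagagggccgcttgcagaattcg
*Mt1*: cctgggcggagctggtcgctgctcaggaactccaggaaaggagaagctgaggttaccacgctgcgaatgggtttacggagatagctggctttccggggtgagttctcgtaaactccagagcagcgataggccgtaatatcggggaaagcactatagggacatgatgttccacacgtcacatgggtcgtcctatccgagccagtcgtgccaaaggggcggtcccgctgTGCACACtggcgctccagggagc

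Of 20 targets of hypoxia-inducible factor, 2 rose. *Adm* encodes adrenomedullin, a peptide that widens vessels, and was at 10.4, 12.6, 15.6, 11.2 and 13.7 CPM after MCAO and 1.12, 1.04, 0 and 3.51 CPM in sham. All MCAO libraries were close together and above sham, with a log2 fold change of 3.08 (SE 0.59, adjusted p = 0.00207) that was called in 6 of the 9 fits without 1 library. *Hk2*, the inducible hexokinase that commits glucose to glycolysis, was at 17.8, 12.1, 18.8, 25.3 and 42.3 CPM after MCAO and 8.93, 3.13, 4.80 and 5.84 CPM in sham, a rise of 2.02 (SE 0.44, adjusted p = 0.00845) that was called in 2 of the 9 fits without 1 library. The median of the 20 was 0.11, and the abundant glycolytic enzyme gene *Aldoa* stood at 0.23 (adjusted p = 0.363). Among 20 genes of growth arrest, p53 and cell death, *Cdkn1a* (the cell cycle inhibitor p21) and *Mdm2* (the ligase that degrades p53) rose by 1.48 (SE 0.32, adjusted p = 0.00897) and 0.87 (SE 0.19, adjusted p = 0.00942). The list median was 0.85, and 19 of the 20 values were above 0. *Cdkn1a* was called in 3 and *Mdm2* in 2 of the 9 fits without 1 library, and *Cdkn1a* was also the 1 call among 18 glucocorticoid-responsive genes. *Gadd45g*, a stress sensor, was at 31.5, 40.8, 141, 70 and 59.6 CPM after MCAO and 29.6, 27.6, 25.1 and 26.1 CPM in sham and was not called (adjusted p = 0.0841).

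Genes of neutrophils, the granulocytes that are the first blood leukocytes to enter injured tissue, had a median log2 fold change of 4.49 over 18 genes tested, the highest of the 44 lists as fitted. With genes at 0 in sham set to the bound that 3 counts per library allow, it was 2.91, below the 3.06 of the blood genes. *S100a8* and *S100a9* encode the calprotectin subunits that fill the neutrophil cytosol, and they were the 2 members called. *S100a8* was at 7.05, 16.02, 85.02, 106 and 759 CPM after MCAO and 0.558, 1.56, 0.739 and 1.17 CPM in sham. *S100a9* was at 3.71, 8.25, 77.2, 68.2 and 903 CPM after MCAO and 0.558, 0, 0 and 1.56 CPM in sham. In both genes every MCAO library exceeded every sham library of 12 h, and within the MCAO group A was lowest and E highest by a wide margin. In the other 20 libraries without MCAO *S100a8* reached 6.2 CPM, below all MCAO libraries, and *S100a9* 6.74 CPM, above MCAO A. The log2 fold changes were 7.51 (SE 1.25, adjusted p = 0.000363) and 8.42 (SE 1.38, adjusted p = 0.000341), and both calls were made in each of the 9 fits without 1 library. Without MCAO E the list median was 2.31, also below that of the blood genes (3.08), and the same 2 genes were called. Of the 18 genes, 9 had no count in any sham library. *Slfn4*, one of these, was at 0.742, 0, 4.17, 2.94 and 73.8 CPM after MCAO, nearly all of it in replicate E, and was not called (adjusted p = 0.032). *Hcar2*, a niacin and butyrate receptor of neutrophils and macrophages, and *Cd300lf*, an inhibitory receptor of myeloid cells, were called and also had 0 counts in sham. *Hcar2* was at 0.742, 2.43, 6.26, 9.41 and 34.5 CPM and *Cd300lf* at 0.371, 8.25, 9.39, 4.12 and 45.3 CPM after MCAO, at least 7.74-fold and 9.77-fold higher than the sham floor of 3 counts per library, and each call was made in 3 of the 9 fits without 1 library. Of 22 neutrophil genes listed, 4 did not reach the 10 counts needed for a test, the defining marker *Ly6g* among them.

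The 6 blood genes had a median of 3.06, with 1 call. *Hba-a1*, an alpha globin gene of red cells, was at 29.3, 71.8, 447, 376 and 300.1 CPM after MCAO and 2.79, 13.04, 36.6 and 42.1 CPM in sham. Replicates C, D and E were high, MCAO A lay within the sham range, and the log2 fold change was 3.32 (SE 0.71, adjusted p = 0.00782), called in 2 of the 9 fits without 1 library. Reads of *Hba-a1* and its near-identical copy *Hba-a2* may be divided between them, and their separate values are uncertain. The other globin genes *Hbb-bs* and *Hba-a2* stood at 3.30 (adjusted p = 0.016) and 2.92 (adjusted p = 0.0288) and were not called. Mice had been perfused with buffer before dissection. Of 15 lymphocyte genes 6 were tested and none was called, and their summed level was 2.09 to 10.6 CPM after MCAO and 6.65 to 26.1 CPM in sham. No gene of monocytes and border macrophages was called among 16, whose median was 2.07, or 0.76 with genes at 0 in sham set to their bound.

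Chemokines, the secreted attractants of leukocytes, gave 4 calls among 24 genes, all higher, with a list median of 2.29 and 20 values above 0. *Cxcl2*, which attracts neutrophils through the receptor *Cxcr2*, had the largest fold change of all called genes. It was at 0, 2.91, 29.2, 12.9 and 366 CPM after MCAO and 0.558, 0, 0 and 0 CPM in sham. The groups overlapped, because MCAO A had no count, and MCAO E held most of the counts. With 1 count in all sham libraries, the ratio of the counts pooled per group, scaled to library size, was 625. Its 95% counting interval was 112 to 24700. The fitted log2 fold change was 8.87 (SE 1.80, adjusted p = 0.00452). Without MCAO E it was 5.98 and was not called. The list median was 1.75 with 1 call without MCAO E, and 0.25 with no call without MCAO C and E. *Ccl4* and *Ccl12*, ligands that draw monocytes and other leukocytes, were at 0.371, 2.91, 28.7, 12.9 and 47.05 and 2.22, 12.1, 33.9, 1.18 and 32.8 CPM after MCAO and at 0, 0, 0.369 and 0 and 0, 0, 1.85 and 0 CPM in sham. *Ccl6*, a chemokine made by myeloid cells, was at 6.67, 16.99, 33.4, 31.8 and 57.2 CPM after MCAO and 3.91, 2.09, 2.22 and 0.390 CPM in sham, with no overlap and a log2 fold change of 3.78 (SE 0.68, adjusted p = 0.00114). The log2 fold changes of *Ccl4* and *Ccl12* were 6.72 (SE 1.42, adjusted p = 0.009) and 4.76 (SE 0.92, adjusted p = 0.00242), and *Ccl12* overlapped because MCAO D lay below sham C. *Ccl6* was called in 7 of the 9 fits without 1 library, *Cxcl2* and *Ccl12* in 4 and *Ccl4* in 3. *Cx3cl1*, the neuronal ligand of the microglial receptor *Cx3cr1*, was at 340.4, 485, 279.6, 179 and 508 CPM after MCAO and 252, 568, 726 and 694 CPM in sham and was not called (-0.64, adjusted p = 0.164).

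The promoter of *Cxcl2* is shown because the gene had the largest called fold change (GRCm38.p6, chr5:90903649-90903898, plus strand, the 250 bases before the RefSeq start). Capitals mark the 1 match to the NF-kB form GGANNTTCC, 96 bases before the start.
*Cxcl2*: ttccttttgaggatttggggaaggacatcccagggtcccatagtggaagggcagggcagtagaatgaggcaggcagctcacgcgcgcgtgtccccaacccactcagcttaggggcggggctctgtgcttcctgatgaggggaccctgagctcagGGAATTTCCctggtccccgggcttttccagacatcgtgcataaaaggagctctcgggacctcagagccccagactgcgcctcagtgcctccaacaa

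Among 20 genes of the response to IL-1, TNF and NF-kB, *Il1b* alone was called, although 19 values were above 0 and the median was 1.39. *Il1b*, the cytokine released by the inflammasome, was at 4.08, 0.971, 17.2, 18.8 and 233 CPM after MCAO and 0.558, 0, 1.11 and 0.779 CPM in sham. Replicate E was again far above the rest, MCAO B lay inside the sham range, and the log2 fold change was 6.23 (SE 1.24, adjusted p = 0.00348). Without MCAO E it was 3.80 and was not called. *Il1rn*, its receptor antagonist, was at 0, 2.43, 20.9, 9.41 and 123 CPM after MCAO and 0 in sham, and was not called (adjusted p = 0.03). *Nfkbia*, the inhibitor that NF-kB induces in a feedback loop, stood at 1.20 (adjusted p = 0.0311). *Tnfrsf1a*, the TNF receptor that most cells carry, was in no list but rose, from 6.70, 4.69, 14.03 and 5.84 CPM in sham to 30.4, 28.1, 38.6, 25.3 and 52.4 CPM after MCAO (2.11, SE 0.39, adjusted p = 0.0017), with no overlap. The *Tnfrsf1a* call was made in 5 of the 9 fits without 1 library.

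The IL-6 family signals through gp130 to STAT3, and 3 of 18 genes of this pathway rose: a receptor, the transcription factor and the feedback inhibitor. *Osmr*, the oncostatin M receptor, was at 5.93, 14.6, 24.5, 4.12 and 17.3 CPM after MCAO and 0.558, 4.17, 3.69 and 2.73 CPM in sham, with MCAO D inside the sham range (2.19, SE 0.45, adjusted p = 0.00591). *Stat3* was at 108, 196, 282, 161 and 225 CPM after MCAO and 69.2, 83.9, 97.1 and 70.1 CPM in sham. The groups did not overlap, the log2 fold change was 1.27 (SE 0.23, adjusted p = 0.000975), and the call was made in all 9 fits without 1 library. Among the other 20 libraries without MCAO *Stat3* reached 118 CPM, above MCAO A. *Socs3*, which STAT3 induces and which blocks the receptor, was at 0.742, 25.7, 79.3, 3.53 and 57.8 CPM after MCAO and 0, 4.69, 3.32 and 2.34 CPM in sham. Replicates B, C and E were high, MCAO A and D lay within the sham range, and the log2 fold change was 3.61 (SE 0.78, adjusted p = 0.00819). *Osmr* was called in 2 and *Socs3* in 3 of the 9 fits without 1 library. The list median was 1.83, or 1.41 with genes at 0 in sham set to their bound.

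All 18 interferon-stimulated genes tested had log2 fold changes above 0, with a median of 1.65, and 2 were called. *Ifitm3*, a membrane protein that restricts virus entry, was at 121, 120.4, 210.2, 144 and 247 CPM after MCAO and 53.04, 31.3, 25.1 and 24.9 CPM in sham. The groups were far apart, and the log2 fold change of 2.34 (SE 0.31) had the lowest adjusted p of all genes (2.42e-05). *Rsad2*, the antiviral viperin, was at 3.34, 3.40, 17.2, 8.24 and 219 CPM after MCAO and 1.68, 3.13, 6.28 and 3.89 CPM in sham. Its rise of 3.65 (SE 0.75, adjusted p = 0.00587) was carried by replicate E, and replicates A and B lay within the sham range. Without MCAO E its log2 fold change was 1.01 and it was not called. The list median was 0.995 without MCAO E and 0.54 without MCAO C and E, with *Ifitm3* as the 1 call in both. *Ifitm1*, a neighbour of *Ifitm3* that was in no list, rose by 3.60 (SE 0.71, adjusted p = 0.00332), with 12.98, 12.1, 13.04, 9.41 and 31.6 CPM after MCAO and 1.12, 2.09, 1.48 and 0.390 CPM in sham. The *Ifitm1* call was made in 4 of the 9 fits without 1 library. *Stat2*, which transmits the type I interferon signal, did not overlap between groups but was not called (0.92, adjusted p = 0.0392).

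**Figure D3:**
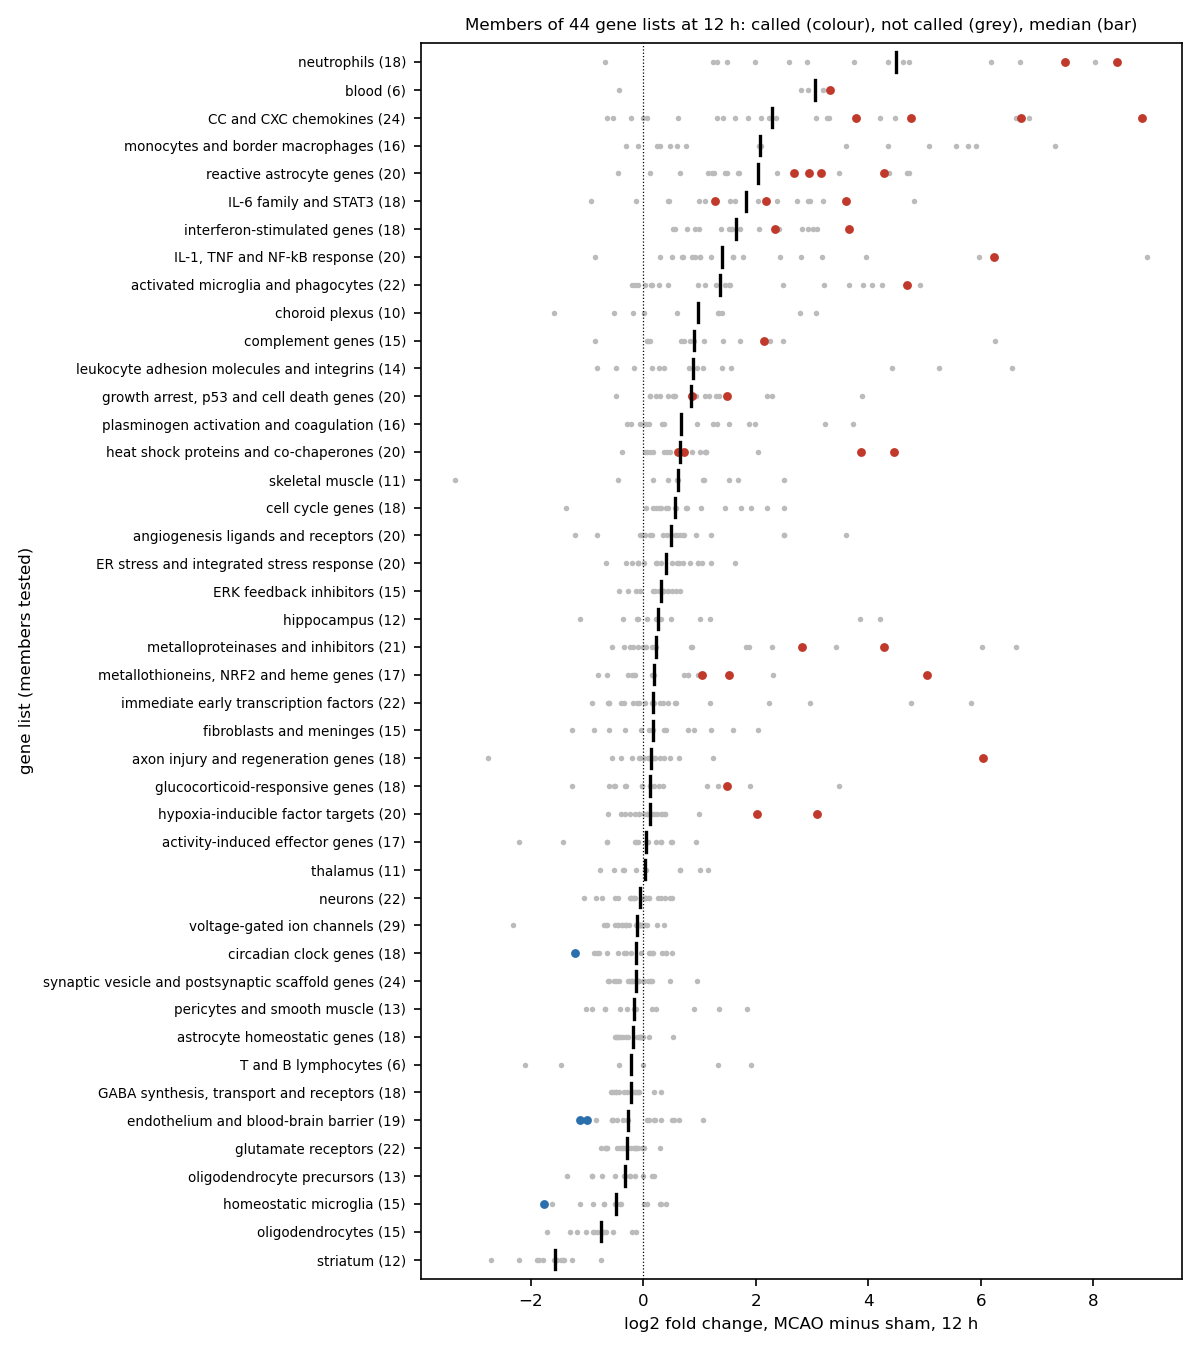
Log2 fold change of MCAO minus sham at 12 h for each tested member of 44 gene lists, ordered by their median (black bar), with genes called higher in red, called lower in blue and not called in grey. Neutrophil genes, 9 of 18 of which had no count in sham, stand at the top as fitted (4.49), but below blood genes (3.06) once those 9 are set to their bound (2.91), and striatal genes stand at the bottom (-1.56).

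Reactive astrocyte genes had 4 calls among 20, all higher, a median of 2.03 and 19 values above 0. Their summed level was 347, 826, 972, 707 and 828 CPM in MCAO A to E and 167, 144, 129 and 123 CPM in sham A to D, and the groups did not overlap. *Gfap*, the intermediate filament of astrocytes, was at 192, 438, 421, 468 and 262 CPM after MCAO and 100.5, 59.96, 22.9 and 42.8 CPM in sham. Every MCAO library lay above every sham library, and the log2 fold change was 2.67 (SE 0.38, adjusted p = 5.54e-05). *Timp1*, a secreted inhibitor of metalloproteinases on the X chromosome, was at 21.1, 57.8, 78.8, 53.5 and 103 CPM after MCAO and 3.35, 0, 4.43 and 4.28 CPM in sham (4.28, SE 0.69, adjusted p = 0.000258). *Cd44*, the hyaluronan receptor, rose from 1.68, 3.13, 7.02 and 5.06 CPM in sham to 11.5, 41.3, 51.1, 11.8 and 85.8 CPM after MCAO (3.15, SE 0.57, adjusted p = 0.00118). Among the other 20 libraries without MCAO *Cd44* reached 15.7 CPM, above MCAO A and D. *Serpina3n*, a secreted protease inhibitor that marks reactive glia, rose by 2.94 (SE 0.57, adjusted p = 0.0028). All 4 were called with the striatal level as a covariate. *Gfap* and *Timp1* were called in all 9 fits without 1 library, *Cd44* in 6 and *Serpina3n* in 3. The intermediate filament gene *Vim* (1.69, adjusted p = 0.0298) and the copper carrier *Cp* (1.70, adjusted p = 0.0168) did not overlap between groups and were not called.

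Genes of resting astrocytes gave no call. Of 18 tested, 2 had values above 0 and the median was -0.19. *Slc1a2*, the main glutamate transporter, was at 2317, 2302, 2274, 2738 and 2220.1 CPM after MCAO and 3387, 3375, 4026 and 2638 CPM in sham, and *Glul*, which turns glutamate into glutamine, at 1365, 969, 1260.2, 1036 and 1092 CPM and 1402, 1570.5, 1801 and 1591 CPM. Their log2 fold changes were -0.50 (adjusted p = 0.0448) and -0.48 (adjusted p = 0.0448). *Slc39a12*, a zinc importer enriched in astrocytes, was in no list and fell, from 7.82, 7.30, 17.4 and 10.9 CPM in sham to 1.85, 4.37, 4.69, 3.53 and 1.79 CPM after MCAO (-1.76, SE 0.33, adjusted p = 0.00212). The groups did not overlap, and the call was made in 7 of the 9 fits without 1 library and with the striatal level as a covariate.

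Of 15 genes of resting microglia 1 was called. *P2ry12*, the ADP receptor by which microglia sense damage, was at 10.4, 5.34, 1.56, 0.588 and 4.17 CPM after MCAO and 8.37, 17.7, 27.3 and 10.9 CPM in sham. MCAO A lay inside the sham range and the others below it, and the log2 fold change was -1.78 (SE 0.39, adjusted p = 0.0093), called in 2 of the 9 fits without 1 library. *Cx3cr1*, the fractalkine receptor of the same cells, stood at 0.30 (adjusted p = 0.675), and the summed level of the list was 521, 389, 251, 526 and 429 CPM after MCAO and 536, 446, 369 and 414 CPM in sham. Among 22 genes of activated microglia and phagocytes *Cd14*, the co-receptor for endotoxin and damage signals, was called, at 1.11, 6.31, 37.6, 3.53 and 61.9 CPM after MCAO and 1.12, 1.04, 0.739 and 0.390 CPM in sham (4.68, SE 0.95, adjusted p = 0.00475). Replicates C and E were high, MCAO A lay within the sham range, and the gene was called in 3 of the 9 fits without 1 library. The median of the 22 genes was 1.37, or 1.19 with genes at 0 in sham set to their bound. Of the 22 values, 19 were above 0. The lipid carrier *Apoe* was at 2186, 1766, 1307, 2533 and 1419 CPM after MCAO and 2685, 2171, 1647 and 1987 CPM in sham, and the lipid receptor *Trem2* at 16.3, 3.88, 6.26, 12.4 and 2.98 CPM and 8.93, 8.86, 7.76 and 8.18 CPM. Neither was called, at -0.20 (SE 0.24, adjusted p = 0.757) and 0.03 (SE 0.51, adjusted p = 0.995). *Serping1*, which inhibits the C1 complex, was the 1 call among 15 complement genes, with 45.98, 48.5, 40.2, 18.2 and 36.9 CPM after MCAO and 8.93, 9.91, 8.49 and 7.40 CPM in sham (2.14, SE 0.41, adjusted p = 0.00216), and *C1qa* stood at 0.90 (adjusted p = 0.262). The other 20 libraries without MCAO held 8.3 to 24 CPM of *Serping1* (median 16.9), a range that includes MCAO D. Against the shams of all times its log2 fold change was 1.48 and was called. *Serping1* was called in 6 of the 9 fits without 1 library, and not with the striatal level as a covariate.

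**Figure D4:**
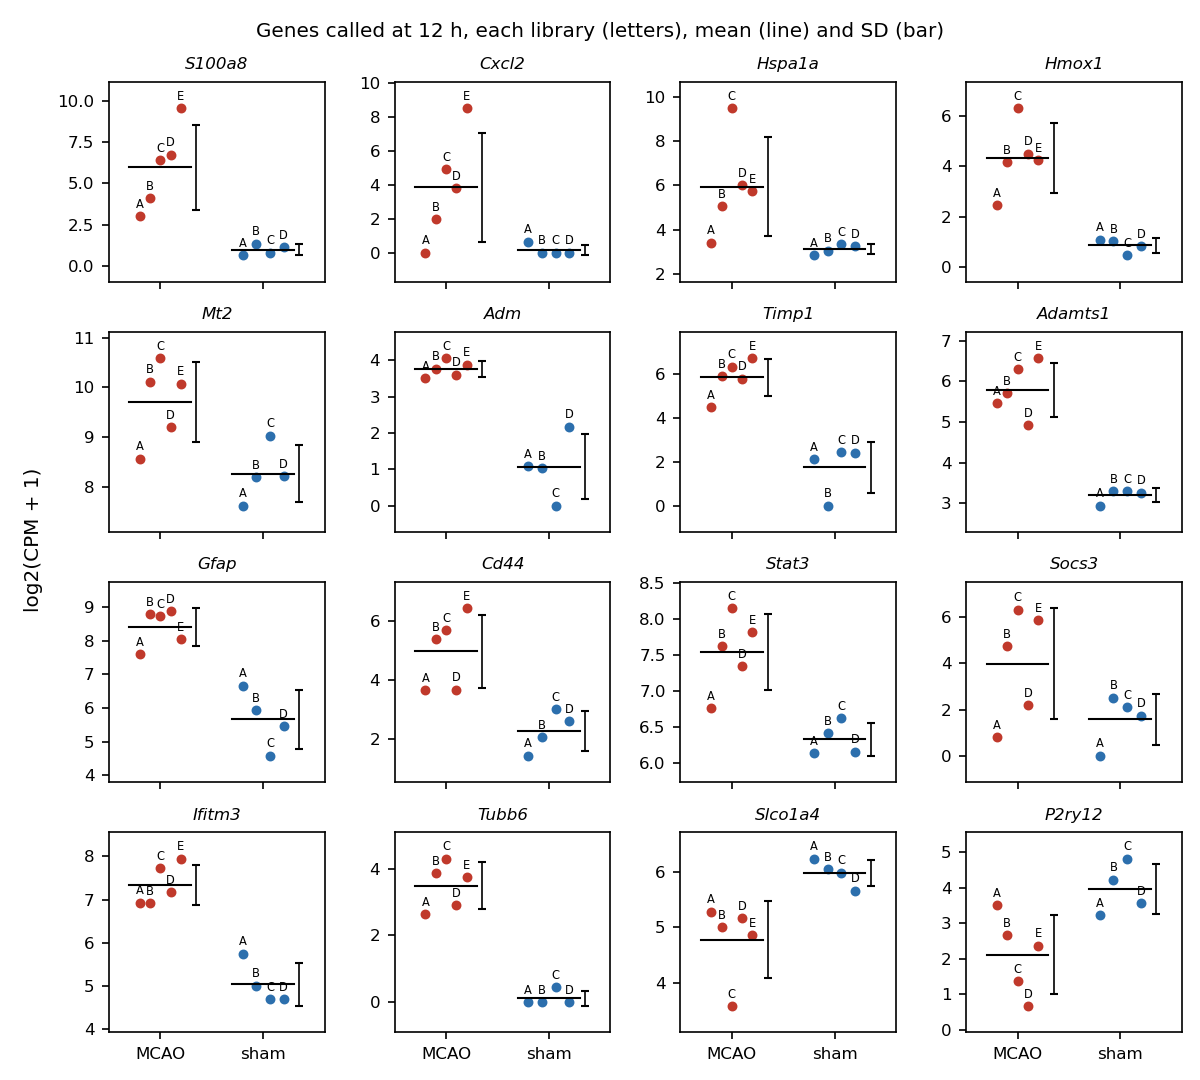
Level of 16 called genes, as log2(CPM + 1), in each 12 h library, MCAO in red and sham in blue, with replicate letters, the mean (line) and SD (bar); n is 5 and 4. *Gfap*, *Timp1*, *Adamts1*, *Ifitm3* and *Stat3* are separate in all 9 libraries, while *Cxcl2*, *Socs3* and *P2ry12* overlap, and MCAO A is often the MCAO library nearest to sham.

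Of 21 metalloproteinases and inhibitors 2 rose, and the list median was 0.23. *Adamts1*, a secreted protease that cleaves proteoglycans, rose from 6.70, 8.86, 8.86 and 8.57 CPM in sham to 43.01, 51.4, 78.2, 29.4 and 94.1 CPM after MCAO (2.82, SE 0.41, adjusted p = 5.54e-05). The other was *Timp1*, and both were called in all 9 fits without 1 library. *Prg4* and *A2m* belonged to no list, and *Prg4* was named after its values were seen. *Prg4*, the joint lubricant proteoglycan, rose from 10.6, 6.78, 12.2 and 7.40 CPM to 42.3, 67.5, 114, 47.6 and 194 CPM (3.31, SE 0.51, adjusted p = 0.000156), and *A2m*, a broad protease inhibitor of plasma, stood at 5.56, 5.34, 18.3, 10 and 19.1 CPM after MCAO with 2 counts in all sham libraries (5.32, SE 0.93, adjusted p = 0.00092). Among 19 genes of endothelium and blood-brain barrier 2 fell. *Slco1a4*, an organic anion transporter of brain capillaries, was at 37.8, 31.1, 10.95, 34.7 and 27.99 CPM after MCAO and 74.3, 64.7, 62.05 and 49.5 CPM in sham, with no overlap (-1.12, SE 0.22, adjusted p = 0.00348). *Itm2a*, a membrane protein of endothelial cells, was at 17.4, 10.7, 8.87, 14.7 and 18.5 CPM and 31.8, 28.2, 31.02 and 21.8 CPM (-0.999, SE 0.22, adjusted p = 0.00954). The list median was -0.27, and neither fall was called with the striatal level as a covariate. *Slco1a4* was called in 4 and *Itm2a* in 1 of the 9 fits without 1 library. *Lama2*, a laminin chain of vascular basement membrane that was in no list, fell by 1.70 on the log2 scale (SE 0.36, adjusted p = 0.0076). It was called in 1 of the 9 fits without 1 library and neither with the striatal level as a covariate nor against the shams of all times.

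*Tubb6*, a beta tubulin that resting brain hardly expresses, was at 5.19, 13.6, 18.8, 6.47 and 12.5 CPM after MCAO and had 1 count in all sham libraries (6.03, SE 1.07, adjusted p = 0.000975). The ratio of the counts pooled per group, scaled to library size, was 98.3 with a 95% counting interval of 17.3 to 3920. It was the 1 call among 18 axon injury and regeneration genes, whose median was 0.13. *Tuba1c*, an alpha tubulin of the same kind, rose from 1.68, 2.09, 1.11 and 3.89 CPM to 15.6, 16.5, 31.8, 20.6 and 49.4 CPM (3.54, SE 0.75, adjusted p = 0.00732). *Msn*, which links actin to the membrane, and *Arpc1b*, a subunit of the actin-branching complex Arp2/3, rose by 2.23 (SE 0.46) and 2.24 (SE 0.49). *Pdpn*, a membrane glycoprotein that binds *Msn* and its relatives, rose from 25.1, 22.9, 7.76 and 17.9 CPM to 42.6, 44.7, 115, 85.3 and 119 CPM (2.16, SE 0.33, adjusted p = 0.000156). *Tuba1c* and *Msn* were called in 3 and *Arpc1b* in 1 of the 9 fits without 1 library, and *Tubb6* and *Pdpn* in all 9. These genes other than *Tubb6* belonged to no list and were named after their values were seen.

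The other rises belonged to no list and had varied functions. Apart from *Cmip*, *Eif2s2* and *1700031P21Rik* they were likewise named after their values were seen. Those called in all 9 fits without 1 library were *Mrps6*, a subunit of the mitochondrial ribosome (1.36, SE 0.21, adjusted p = 0.000156), *Pdlim4*, an actin-bound adaptor (1.67, SE 0.28, adjusted p = 0.000352), *Pvr*, the poliovirus receptor homologue of the nectin family (1.93, SE 0.32, adjusted p = 0.000352), and the pseudokinase gene *Stk40* (1.13, SE 0.18, adjusted p = 0.000258). In *Mrps6* the libraries stood at 139, 107, 140.3, 77.1 and 87.5 CPM after MCAO and 45.2, 39.6, 38.8 and 48.3 CPM in sham, and in *Stk40* at 71.9, 127, 147, 101 and 88.7 CPM and 54.7, 58.9, 32.9 and 49.5 CPM, with no overlap in either gene. The small calcium-binding proteins *S100a4* and *S100a6* rose by 2.02 (SE 0.45) and 1.28 (SE 0.27). Transporters of small solutes were *Slc5a3*, which imports myo-inositol (1.18), and *Slc1a4*, which carries neutral amino acids (0.95). Enzymes were *Aldh1a2*, which makes retinoic acid (2.27), *Parp3*, which adds ADP-ribose near DNA breaks (1.98), *Cyb5r1* (1.55) and *Gpat4*, which starts triglyceride synthesis (0.89). Genes of RNA and protein synthesis were *Nop58* of the nucleolus (0.86), *Snrpd1* of the spliceosome (0.84, and not called against the shams of all times) and *Eif2s2*, a subunit of the initiation factor that delivers the first tRNA (0.71). The adaptor genes *Ap2b1* and *Cmip*, of higher counts, rose by 0.77 (SE 0.17) and 0.66 (SE 0.13), and *6430548M08Rik* by 0.61 (SE 0.13). *Ctla2a* and the early response gene *Ier3* rose by 2.06 (SE 0.43) and 1.87 (SE 0.40), and the long noncoding RNA *1700031P21Rik*, with 1 count in all sham libraries, by 4.82 (SE 1.06). Of these genes only *Eif2s2* overlapped between the groups. *Slc1a4* and *Cyb5r1* were called in 8 of the 9 fits without 1 library, and *Nop58* and *Cmip* in 4. The calls of *Aldh1a2*, *Gpat4*, *Snrpd1*, *Eif2s2* and *1700031P21Rik* were made in 3 of the 9. Those of *S100a6*, *Slc5a3*, *Ctla2a* and *Ier3* were made in 2, and those of *S100a4*, *Parp3*, *Ap2b1* and *6430548M08Rik* in 1.

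Neuronal and synaptic lists gave no calls. None of 22 glutamate receptor genes, 18 GABA genes, 29 voltage-gated channels, 24 synaptic genes and 22 neuronal markers was called, with medians of -0.29, -0.22, -0.12, -0.13 and -0.07. The values were below 0 for 20 of the 22 glutamate receptor genes. *Gria2*, the AMPA receptor subunit that blocks calcium entry, was at 724, 803, 739, 731 and 821 CPM after MCAO and 855, 1098, 1206 and 939.8 CPM in sham, with no overlap (-0.42, SE 0.11, adjusted p = 0.0389). The neuronal splicing factor gene *Rbfox3* stood at 0.10 and was not called. Immediate early genes, which neurons switch on within minutes of activity, also gave no call at 12 h among 22. Their median was 0.17, and 13 of the 22 values were above 0. *Egr1* stood at -0.40 (adjusted p = 0.493). In raw counts per group, not scaled to library size, *Atf3* had 72 after MCAO and 2 in sham. *Jun* had 1377 and 573, and *Nr4a1* went the other way with 168 and 330. Against the shams of all times 4 of the 22 were called higher.

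All 15 oligodendrocyte genes and all 12 striatal genes tested had values below 0, with medians of -0.75 and -1.56, and none was called. The myelin gene *Mbp* stood at -0.90 (adjusted p = 0.142), and the summed oligodendrocyte level was 1179, 1732, 2289.8, 2185 and 1103 CPM after MCAO and 2706, 3200.4, 1875 and 4236 CPM in sham. *Penk*, the enkephalin precursor of striatal neurons, was at 100.1, 69.4, 48.5, 76.5 and 141 CPM and 148, 195, 172 and 423 CPM (-1.43, adjusted p = 0.33). With the striatal level as a covariate the oligodendrocyte median was -0.35.

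The 13 falls were small and spread over varied functions. *Dbp*, a clock-controlled transcription factor, was the 1 call among 18 clock genes, at 19.7, 30.1, 39.1, 35.9 and 28.6 CPM after MCAO and 49.1, 43.8, 74.97 and 113 CPM in sham (-1.21, SE 0.25, adjusted p = 0.00644), and its relative *Hlf* stood at -0.83 (adjusted p = 0.0746). *Abhd17a*, which removes palmitate from proteins such as PSD-95 and Ras, was at 78.2, 114, 98.1, 106 and 106 CPM after MCAO and 161, 174, 208 and 136 CPM in sham (-0.76, SE 0.13, adjusted p = 0.000723) and was called in 8 of the 9 fits without 1 library. *Hdac5*, a histone deacetylase that shuttles with neuronal activity, *Tprgl*, a presynaptic vesicle protein, and *C1qtnf4*, a secreted member of the C1q and TNF family, fell by 0.82, 0.64 and 1.14 on the log2 scale (adjusted p = 0.0095, 0.00782 and 0.00722). *Nudt19*, a peroxisomal hydrolase of coenzyme A, fell by 0.84 (adjusted p = 0.00689), and its groups overlapped, as did those of *C1qtnf4* and *P2ry12*. *Dbp* and *Tprgl* were called in 4 of the 9 fits without 1 library, *Nudt19* and *C1qtnf4* in 2 and *Hdac5* in 1. *Nudt19* and *Tprgl* were not called against the shams of all times. Of the 13 falls only *Abhd17a*, *Slc39a12* and *4933431E20Rik* were called with the striatal level as a covariate. The antisense RNA *4933431E20Rik* fell by 0.91 (adjusted p = 0.00102). The strand setting of the counting is not given in the sources used here, and its reads cannot be told apart from those of the gene on the other strand. The identifier ENSMUSG00000029333.14, which has no symbol in the annotation used here, fell by 0.94 (adjusted p = 0.0093) and was called in 1 of the 9 fits.

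Some called genes differed between whole groups of libraries in other ways than MCAO against sham. *Synpr* encodes the synaptic vesicle protein synaptoporin. It was at 81.9, 48.5, 24.5, 24.1 and 50.02 CPM after MCAO and 5.02, 4.17, 13.3 and 4.28 CPM in sham at 12 h, a called rise of 2.73 (SE 0.44, adjusted p = 0.000328). In the other 20 libraries without MCAO, however, it was between 34.2 and 144 CPM, so that the 4 sham libraries of 12 h lay below all of these, and the 5 MCAO libraries of 3 h were at 2.83 to 8.2 CPM. *Gm15446* had no count in the 4 sham libraries of 12 h, 1.04 to 2.98 CPM after MCAO at 12 h, 1.71 to 9.81 CPM in the other 20 libraries without MCAO and 0 to 1.82 CPM after MCAO at 3 h. Against the mean of the 5 sham groups neither gene was called. The pseudogene *4930526A20Rik* had 2 levels, 22 to 48.8 CPM in MCAO and 1.12 to 3.51 CPM in sham at 12 h, but also 22.2 to 30.4 CPM in the shams of 3 days, and 0.562 to 21.4 CPM within the control. The processed pseudogenes *Gm10039* and *Gm12892* were high in MCAO A, C and E of 12 h only (24 to 42.3 and 16.7 to 41.1 CPM), while MCAO B and D stood at 0 to 1.76 CPM and all libraries of the other groups at 0 to 1.78 CPM. Reads of such pseudogenes may come from their parent genes, and the counts are uncertain. The labels give no litter or supplier for any library, so whether the groups' mice differed in origin is not known, and why these genes follow groups was not tested.

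**Figure D5:**
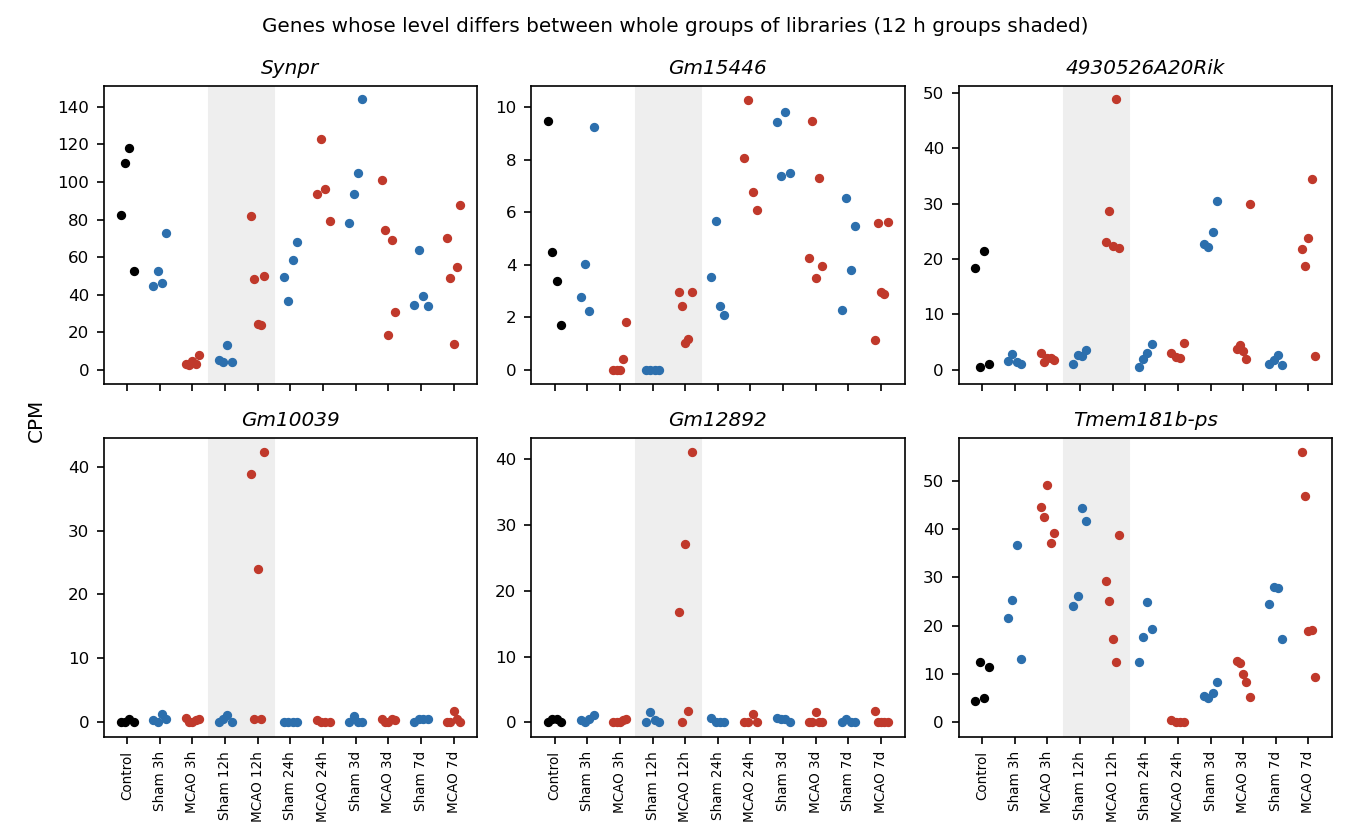
CPM of 6 genes in each library of the 11 groups, MCAO in red, sham in blue and control in black, with the 12 h groups shaded. *Synpr* and *Gm15446* are low in sham at 12 h and in MCAO at 3 h, and *Tmem181b-ps* is at 0 to 0.425 CPM in the 4 MCAO libraries of 24 h.

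The MCAO effect at 12 h was set beside those at 3 h and 24 h, which have their own sham groups. At 3 h 22 genes were called (0.11% of genes tested) and at 24 h 18 (0.0901%), beside 82 at 12 h, or 21 there without sham C. Of the 69 genes higher at 12 h, 2 were also called higher at 3 h (*Hspa1a* and *Ifrd1*) and 14 at 24 h. The latter were *Tubb6*, *A2m*, *Ccl12*, *Timp1*, *Serpina3n*, *Adamts1*, *Gfap*, *Ifitm3*, *Pdpn*, *Tnfrsf1a*, *S100a4*, *Pdlim4*, *Mrps6* and *Mt1*. The median log2 fold change of the 69 was 2.27 at 12 h, where they were chosen, 0.83 at 3 h and 1.77 at 24 h. *Gfap* stood at 0.72 at 3 h, 2.67 at 12 h and 3.16 at 24 h, *Adamts1* at 1.77, 2.82 and 2.57, and *S100a8* at 2.91, 7.51 and 3.28. *Hspa1a* stood at 4.02, 4.46 and 3.01, and *Ifrd1*, a transcription coregulator induced by stress, at 1.62, 1.14 and 0.79. None of the 13 genes lower at 12 h was called at 3 h or 24 h, and their median was -0.13 at 3 h and -0.56 at 24 h.

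Few of these differences between times passed a test of their own. In the test of the 12 h effect minus the 3 h effect 2 genes were called (0.01% of genes tested), *Synpr* (6.33 on the log2 scale) and *Gm15446* (8.27), and in that of the 24 h effect minus the 12 h effect 2 were (0.01%), among them the pseudogene *Tmem181b-ps* (-6.23). At an unadjusted p under 0.05 there were 1421 and 1015 genes, and DESeq2 called 3 in each. Without replicate D of the 3 h sham 5 genes were called in the first test. *Tmem181b-ps* was at 0 to 0.425 CPM in the 4 MCAO libraries of 24 h and at 12.4 to 44.3 CPM in all 9 libraries of 12 h. No stress, cytokine or glial gene was called different in effect between 12 h and 3 h or 24 h.

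Motifs were searched, as letters on both strands, in the 250 bases before the RefSeq start (GRCm38.p6), which was found by symbol for 64 of the 82 called genes and 13079 genes tested. Of 53 genes called higher, 5 (9.43%) held the heat shock element GAANNTTC, beside 6.22% of the genes tested with a promoter. The STAT form TTCNNNGAA was held by 4 of the 53 (7.55%), beside 7.19%, the AP-1 form TGANTCA by 4 (7.55%), beside 5.89%, and the NF-kB form GGANNTTCC by 7 (13.2%), beside 4.53%. The 7 were *Cxcl2*, *Ccl12*, *Stat3*, *Ifitm3*, *Ier3*, *Hspa1a* and *Hspa1b*, the last 2 of which are near-identical copies. With 1 further G in front, this form was held by 2 (3.77%), beside 1.41%. The metal response core TGCNCNC was held by 34 (64.2%), beside 56.7%, and the hypoxia core ACGTG by 10 (18.9%), beside 23.4%. The antioxidant form TGACNNNGC was held by 6 (11.3%), beside 13.7%, and the cAMP form TGACGTCA by 1 (1.89%), beside 2.78%. Of the 11 genes called lower with a promoter, 4 held TGCNCNC, 2 each ACGTG, TGACNNNGC and the NF-kB form, 1 each the heat shock and STAT forms, and none the others. These are matches of letters within a short window and no sites of binding.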

How the data were processed

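Libraries were made with the QuantSeq 3' kit from brain tissue of buffer-perfused mice, with ERCC spike-in RNA added. The authors trimmed reads with Trimmomatic, removed ribosomal reads with SortMeRNA, aligned them with STAR 2.5.2b to GRCm38 and counted them per Gencode gene with htseq-count in union mode, and the deposited values are raw counts, 1 file per library. The submitters' processing notes also name DESeq. A 3' assay counts 1 end of each transcript, so isoforms are merged and levels are not compared between genes.

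Here ERCC rows and summary rows were left out, and genes with over 10 counts over the 48 libraries were kept. Groups were taken from the labels. edgeR 4.0.16 (R 4.3.3) was fitted with TMM scaling and a quasi-likelihood model of the 11 groups. Calls required p below 0.01 after Benjamini-Hochberg adjustment and a log2 fold change of more than 0.58 in size. The SE is the absolute log2 fold change divided by the root of F. The biological coefficient of variation was 24.9%. CPM are TMM-scaled, and 1 count is about 0.4 to 0.6 CPM in these libraries. Floors are 3 counts per library, and counting intervals (95%) cover counting error only. The tests were tried on simulated counts with known changes. These counts held independent noise around a common mean per gene, so the trial did not cover outlying libraries, mixed tissue or shifts of whole groups. Gencode vM21 gave symbols and coordinates, and RefSeq (GRCm38.p6) the promoters. Python 3.11.15 with numpy 2.4.6, scipy 1.17.1, pandas 2.3.3 and matplotlib 3.10.9 served for tables, the permutation test and figures.

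Genes were named by a rule: called genes with separate groups and a mean of at least 2 CPM (12 largest each way), the 6 called genes of highest mean CPM each way, and in each of 44 lists up to 4 called members and 2 uncalled ones of highest CPM (3 where none was called). Other called genes and some uncalled ones were added after their values were seen, to account for every call at 12 h. A few items are not reported here. The comparison, the lists and the tests were chosen with earlier results of these data known. Alternatives were DESeq2 1.42.0, DESeq2 size factors, other filters, spike-in scaling, a replicate block, the 9 libraries alone and leaving out each library. Added after seeing the data were the shams of all times as reference, the striatal level as a covariate, and leaving out MCAO C and E.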

Additional observations from a re-analysis of the deposited data

Results flagged for a closer look

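Of 88 sets of summed list levels (44 lists, each in MCAO and in sham), 8 had 1 library far from the others of its group by Dixon's test at the 95% level, which flags about 1 in 20 groups by chance. All 8 were MCAO libraries. MCAO E was the high one for chemokines (1379 CPM), interferon-stimulated genes (859.9 CPM), leukocyte adhesion genes (549.7 CPM), neutrophil genes (2023 CPM) and thalamic genes (335 CPM). MCAO C stood apart for glutamate receptors (3516 CPM), and MCAO D for voltage-gated channels (7847 CPM) and striatal genes (1876 CPM). Whether E, C or D differ in lesion size or in the tissue taken was not tested.

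The MCAO effect differed between times, by the interaction test, for these genes. *Synpr* and *Gm15446* had effects at 12 h that exceeded those at 3 h by 6.33 and 8.27 on the log2 scale. In both genes the sham libraries of 12 h and the MCAO libraries of 3 h were the low ones. The effect at 24 h minus that at 12 h was -6.23 for *Tmem181b-ps*, which was at or near 0 in the 4 MCAO libraries of 24 h.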

How the results depend on the processing

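The 82 calls at 12 h became 179 with DESeq2, 171 with no filter on low counts, 53 with the replicate block and 13 with the 9 libraries alone. The alternatives chosen after seeing the data gave 600 calls against the shams of all times, 33 with the striatal level as a covariate and 13 with no MCAO C and E. Leaving out 1 library gave 21 to 102. DESeq2 size factors (80), the other filter (83) and spike-in scaling (58) stayed within 1.5 times. DESeq2 called 81 of the 82 genes and the fit against all shams 75.

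The 12 h effect minus the 3 h effect gave 2 calls, 5 with no filter, 1 with only the groups compared and 2 to 5 without 1 library. The replicate letters did not pair the samples: same-letter deviations correlated at 0.152, 0.048, 0.143 and -0.308 for A to D, and MCAO D correlated best with sham A (0.718). Signs were followed for the called genes and for some uncalled genes named in the text. They reversed in 9 values, all of genes that were not called. *Apoe* was 0.031 with no MCAO C and E. *Trem2* was -0.0819 with spike-in scaling, -0.418 to 0.230 without 1 library, below 0 without MCAO A, MCAO D (-0.108) or sham C (-0.0073), and -0.174 with the striatal covariate. *Penk* was 0.0917 with that covariate, but it is itself among the striatal genes summed there, so this value is not independent of the covariate. *Rbfox3* was -0.0224 with spike-in scaling and -0.0749 against all shams. List medians changed sign in 11 settings for thalamic, 8 for activity-induced, 3 for glucocorticoid-responsive and 2 for lymphocyte genes. In 1 setting each, so did those of ERK feedback, axon injury, hippocampal, hypoxia-inducible factor, immediate early and skeletal muscle genes. Apart from the settings that hold fewer samples or genes, the cause was not tested. Without MCAO C and E the list medians were 1.03 for the IL-6 family, 0.593 for IL-1 and TNF, 0.880 for activated microglia, 1.05 for monocytes and 0.394 for heat shock genes, beside 1.83, 1.39, 1.37, 2.07 and 0.656 with all libraries. Spike-in scaling moved the median of all genes to -0.0925. With 4 sham libraries and 1 count near 0.5 CPM, genes under a few CPM rest on few reads.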

Other observations

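Several lists had raised medians with no call. Cell cycle genes had 17 of 18 values above 0 and a median log2 fold change of 0.57. The medians were 0.88 over 14 leukocyte adhesion genes, 0.66 over 16 genes of plasminogen activation and coagulation, and 0.49 over 20 angiogenesis ligands and receptors, beside 0.01 over all genes. Without MCAO E the medians of the last 3 lists were 0.37, 0.42 and 0.31, and without MCAO C that of the angiogenesis list was 0.20. *Thbs1*, an antiangiogenic matrix protein, was at 0.371, 1.46, 19.3, 7.06 and 58.96 CPM after MCAO and 1.68, 1.56, 1.85 and 0.390 CPM in sham, with an adjusted p of 0.0564 by edgeR. *Anxa2*, a surface protein that helps to activate plasminogen, was at 34.5, 60.2, 67.8, 61.8 and 64.9 CPM and 36.3, 16.2, 24.7 and 16.7 CPM (adjusted p = 0.0993). Precursors of oligodendrocytes had a median of -0.32 over 13 genes, and pericytes and smooth muscle one of -0.17 over 13.

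Against the mean of the sham groups of all 5 times, 489 of 19970 genes (2.45%) were called higher and 111 lower (0.556%). Several lists had more calls there, among them 15 of 20 reactive astrocyte genes, 13 of 18 neutrophil genes, 11 of 18 interferon-stimulated genes, 11 of 24 chemokines, 10 of 20 heat shock genes and 5 of 6 blood genes called higher, beside 4, 2, 2, 4, 4 and 1 against the 12 h sham alone, and 1 chemokine was called lower. That comparison rests on shams of other times as well, and was added after seeing the data.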
